A study of Mus musculus with 24 samples.

Results

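Heat-shock proteins and their partners in the endoplasmic reticulum (ER) are the chaperones that fold new proteins, refold damaged ones and hand failed ones on for degradation. The genes described here were the protein coding mouse genes of GENCODE M21 whose symbols begin with Dnaja, Dnajb or Dnajc, with Hspa, Hspb, Hspd, Hspe or Hsph, with Hsp90 or with Pdia, each followed by a number, together with Calr, Canx and Sdf2l1. By this rule 80 genes were members, all of them among the 51826 genes of the count table. They were measured in the dorsal hippocampus of adult mice in 24 libraries.

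HSP70 proteins bind exposed stretches of unfolded protein, J proteins (the Dnaj genes) deliver clients to them and start ATP hydrolysis, and HSP110 proteins reload them with nucleotide. HSP90 finishes the folding of kinases and receptors, and small HSPs hold aggregating proteins in solution. In the ER the HSP70 protein BiP (Hspa5), the HSP90 protein GRP94 (Hsp90b1), the lectins calreticulin (Calr) and calnexin (Canx) and the protein disulfide isomerases (Pdia genes) do the same work for secreted and membrane proteins. Heat-shock factor 1 switches on the cytosolic set after proteotoxic stress, the unfolded protein response (UPR) switches on the ER set, and neurons use some J proteins, such as cysteine string protein (Dnajc5) and auxilin (Dnajc6), at the synaptic vesicle.

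The study asked which hippocampal genes respond to learning and which of them need the KIX domain of the coactivator CBP. By the labels all mice were C57BL/6j males of 2 to 4 months, while the study's methods speak of both sexes for its experiments as a whole. CBP KIX/KIX mice carry CBP with a mutated KIX domain, to which phosphorylated CREB cannot bind, and wildtype (WT) littermates were the controls. In RNA-Seq 1, total RNA depleted of ribosomal RNA was sequenced from WT mice in the homecage (3 libraries), WT mice trained in the Morris water maze (MWM; 3) and CBP KIX/KIX mice trained in the MWM (3). In RNA-Seq 2, polyA-selected RNA was sequenced from WT homecage mice (3), WT mice after contextual fear conditioning (CFC; 4), CBP KIX/KIX mice after CFC (4) and CBP KIX/KIX homecage mice (4). Trained mice were killed an hour after the last maze trial or after a conditioning session with a single foot shock. The task, the kind of library and the sequencing run changed together between both experiments, so differences between them cannot be told apart from differences in task. The CBP mutation cannot be read from gene counts, and the level of Crebbp, which encodes CBP, 183 to 212 as group means in RNA-Seq 1 and 63.1 to 66.6 in RNA-Seq 2 on the depth-scaled scale below, says nothing about it.

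Libraries held 38174044 to 65709282 counts in RNA-Seq 1 and 15385836 to 46056290 in RNA-Seq 2. Levels are depth-scaled counts (CPM) after upper-quartile normalisation, and 3 counts corresponded to 0.0537 to 0.174 CPM. All 6 markers of hippocampal neurons were detected in every library, with a summed level of 3611 to 5353 CPM. Markers of choroid plexus, an epithelium that lies against the hippocampus, summed to 33.8 CPM in the lowest and 4296 CPM in the highest library, and every group held both low and high libraries. Some libraries stood apart within their groups for some of the chaperones. Among them was WT homecage replicate 3 of RNA-Seq 1, and for Hspa5 that of RNA-Seq 2 (291 CPM against 186 and 222 CPM). CBP KIX/KIX homecage replicates 3 and 4 of RNA-Seq 2 stood apart for Hsph1, Dnajb5 and Hspb6. For Hspa5, Hsp90b1 and Canx, however, WT homecage replicates 1 and 2 of RNA-Seq 1 lay below every trained library of that experiment, and replicate 3 did not. Every comparison below with an adjusted p was tested in edgeR by the quasi-likelihood test, with Benjamini-Hochberg adjustment over all genes tested and a threshold of 0.05. The labels number the replicates without saying what else a number shares, and p-values measure the spread between these libraries. In the pooled comparisons of learning and of genotype, factors of unwanted variation were estimated from the same libraries. Their p-values measure only the spread left after those factors were fitted. Exons of 27 members, Dnaja1, Hspd1 and Hspe1 among them, overlap another gene, on the opposite strand for 23, and the strand setting of the counting is not given in the sources used here. Log2 fold changes are given ± the standard error, and levels ± SD.

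Of the 80 members, 68 reached 1 CPM in every library, 10 stayed below 1 CPM in every library, and 1, Dnajc5g, stayed under 3 counts in every library. The members that stayed below 1 CPM were mostly testis-enriched J proteins and muscle small HSPs, such as Dnajb7, Dnajb8, Hspb2, Hspb3 and Hspb7. The 80 genes together took 7745 ± 344 CPM in WT homecage mice of RNA-Seq 1 (n = 3) and 9435 ± 457 in those of RNA-Seq 2 (n = 3). In WT homecage mice the median coefficient of variation of the 70 members among 15313 expressed genes was 11.2% in RNA-Seq 1 and 6.28% in RNA-Seq 2, against 13% and 6.88% for all of these genes.

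Per kilobase of exon, the constitutive cytosolic chaperones led in both experiments. In WT homecage mice of RNA-Seq 1, Hsp90ab1, the constitutive HSP90, had 425 ± 36.3 CPM per kb, Hspa8, the constitutive HSP70, had 210 ± 25.3, and the ER lectin Calr had 122 ± 8.02. Hsp90aa1, the inducible HSP90, followed with 114 ± 22.9, within the spread of Calr, ahead of Dnajc5 with 84.5 ± 2.17 and Dnajc6 with 56.7 ± 4.05, which did not differ from Canx (53.7 ± 8.33) beyond the spread. In WT homecage mice of RNA-Seq 2 the order was Hsp90ab1 (504 ± 5.83 CPM per kb), Hspa8 (313 ± 19.9), Hsp90aa1 (194 ± 12.4) and Calr (113 ± 11.2). Canx (63.7 ± 3.08) came next, and Dnaja2 (62.1 ± 3.19) and Hspd1 (60.5 ± 3.04) did not differ from it beyond the spread. The classic stress-inducible HSP70 genes were below the median member in both experiments (8.46 and 9.41 CPM per kb): Hspa1a had 2.91 ± 0.39 CPM per kb in RNA-Seq 1 and 1.59 ± 0.276 in RNA-Seq 2, and Hspa1b 4.62 ± 0.808 and 3.18 ± 0.449. The 8 Hspb members, taken here as the small HSPs, were low together, summing to 31.4 ± 0.921 CPM and 26.1 ± 5.34 CPM. Cryab falls outside the rule and was listed with the cytosolic cochaperones, so these sums do not cover it.

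**Figure D1:**
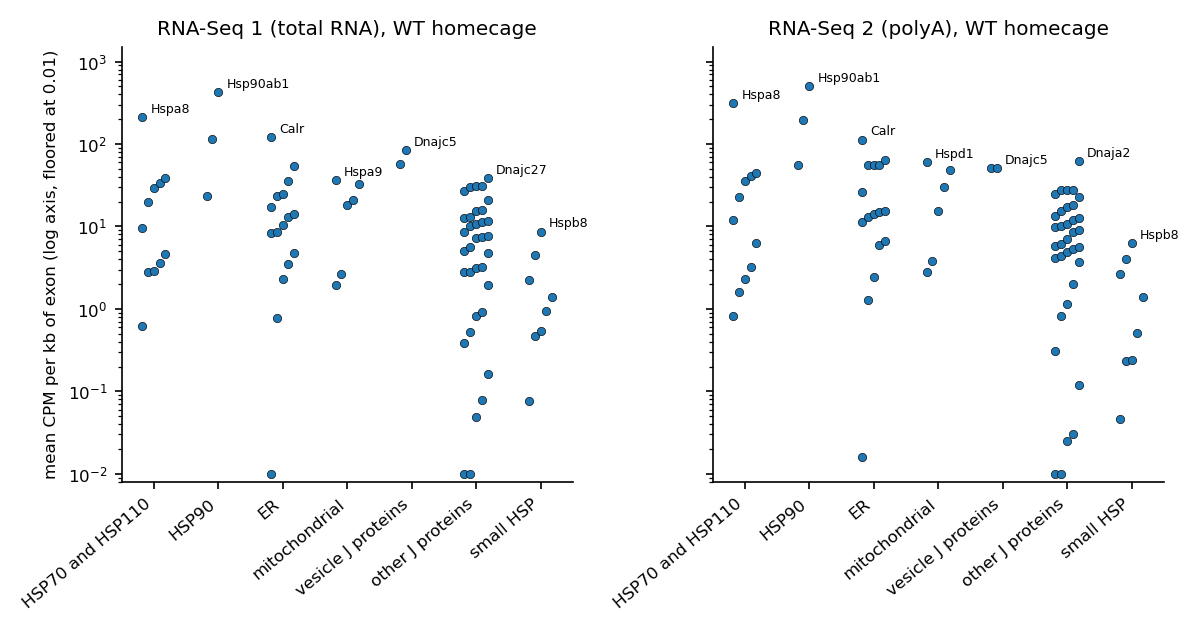
Mean level of each member in WT homecage mice of RNA-Seq 1 (left) and RNA-Seq 2 (right), in CPM per kb of exon on a log axis, by role, with each role's highest member named. Each point is a gene, Hsp90b1 appears under HSP90 and ER, and values under 0.01 are drawn at 0.01. Hsp90ab1 is highest in both panels, at 425 and 504 CPM per kb.

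Among WT homecage mice, the polyA libraries of RNA-Seq 2 gave higher levels than the total RNA libraries of RNA-Seq 1 for most chaperones. The median log2 ratio of RNA-Seq 2 to RNA-Seq 1 was 0.281 over 73 members and -0.062 over 22408 genes. A log2 ratio above 1 was seen for 10 of the 73 members and 1478 of the 22408 genes. A log2 ratio below -1 was seen for 0 members and 3683 genes. Dnajb9, an ER J protein of the UPR, went from 12.2 to 32.8 CPM, Hsp90b1 from 93.7 to 225 and Pdia3 from 77 to 176. Dnajc18 (169 and 94.5 CPM), Hspa1a (8.65 and 4.72) and Dnajc5 (588 and 359) were higher in total RNA. Library type and experiment cannot be told apart in these ratios, which were not tested.

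The upstream sequences of the members hold the elements of both stress responses. RefSeq promoter windows (GRCm38.p6, 250 bases before to 50 after a start) were found for 66 of the 80 members, in 83 windows. The ER stress response element, ERSE (CCAAT, any 9 bases, CCACG, either strand), was in 7.23% of the members' windows and in 0.119% of all 32851 windows. All 6 genes that held it, Calr, Canx, Dnajc3, Hsp90b1, Hspa5 and Pdia6, encode proteins of the ER. They are printed 5′ to 3′ on the strand of the gene, with the ERSE in capitals.

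Hspa5 (chr2:34772010-34772058, + strand): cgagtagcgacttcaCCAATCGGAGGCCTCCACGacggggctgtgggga
Hsp90b1, distal (chr10:86705623-86705671, - strand): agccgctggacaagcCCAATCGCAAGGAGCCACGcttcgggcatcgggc
Hsp90b1, proximal (chr10:86705518-86705566, - strand): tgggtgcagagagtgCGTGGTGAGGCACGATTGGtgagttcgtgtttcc
Calr (chr8:84847060-84847108, - strand): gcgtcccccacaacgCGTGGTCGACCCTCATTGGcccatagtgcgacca
Canx (chr11:50325785-50325833, - strand): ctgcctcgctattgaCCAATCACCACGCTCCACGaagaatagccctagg
Pdia6 (chr12:17266476-17266524, + strand): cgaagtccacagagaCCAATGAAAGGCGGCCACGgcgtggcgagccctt
Dnajc3 (chr14:118937812-118937860, + strand): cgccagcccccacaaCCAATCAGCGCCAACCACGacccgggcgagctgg

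The related ERSE-II (ATTGG, any base, CCACG, either strand) was found only in Dnajb11 among the members, and in 0.0365% of all windows. The heat-shock element, HSE, was searched as 3 alternating units (GAA, TTC, GAA, with NN between them, either strand) and was in 4 member genes, Dnajb6, Hspd1, Hspe1 and Hsph1, or 7.23% of the members' windows against 0.603% of all windows. These windows repeat some elements: overlapping windows of Dnajb6 share the same match, and so do those of Hsph1, where it lies after the start. Hspd1 and Hspe1, the mitochondrial chaperonin HSP60 and its lid HSP10, are divergent neighbours, and the windows of both hold the same element. It is shown on the Hspd1 strand with the overlapping HSE matches in capitals.

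Hspd1 (chr1:55088038-55088097, - strand): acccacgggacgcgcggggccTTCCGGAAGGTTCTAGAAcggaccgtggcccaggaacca

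Hspa1a and Hspa1b are known as near-identical copies, and how the counting treated reads that match both is not given in the sources used here, so the count of either is uncertain. Upstream of their starts 247 of 250 bases were the same. Neither held the 3-unit HSE in this window. Both held the 2-unit form (GAANNTTC or TTCNNGAA), which was added after earlier results were seen and is common, in 21.7% of the members' windows and 15.1% of all. The capitals mark it in the Hspa1b line.

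Hspa1b (chr17:34959319-34959358, - strand): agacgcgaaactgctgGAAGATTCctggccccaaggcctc

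The full cyclic AMP response element, CRE (TGACGTCA), to which CREB binds, was in the window of a single member, Dnajc27 (1.2% of the members' windows and 1.79% of all windows). Its 5-base core (TGACG, either strand), also added after earlier results were seen, was in 47% of the members' windows and 20.8% of all windows. A match is a description of letters and not a binding site. The window of Dnajb1, called in the comparisons of learning and of genotype below, held the core just before the start, in capitals here on the opposite strand.

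Dnajb1 (chr8:83608095-83608174, + strand): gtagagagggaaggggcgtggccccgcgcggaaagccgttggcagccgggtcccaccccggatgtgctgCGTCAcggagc

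Dnajb1 and Hspa13 were the members called higher after learning in WT mice in the fit that pooled both experiments. Dnajb1 (ENSMUSG00000005483, chr8:83608193-83612653), the main stress-inducible J protein partner of HSP70, measured 49.6, 50.2 and 48.9 CPM in the homecage and 69.2, 58.8 and 56.8 CPM after the MWM. In RNA-Seq 2 it measured 38.9, 37.5 and 39.8 CPM in the homecage and 44.0, 41.7, 43.0 and 42.1 CPM after CFC. Every trained WT library was thus above every homecage WT library of its experiment. With both experiments pooled, the experiment as a batch and 3 estimated factors of unwanted variation (RUVr), the log2 fold change was 0.23 ± 0.04 (1.17-fold), with an adjusted p = 0.0115. Without the factors the change was 0.22 ± 0.05 and its adjusted p = 0.485 in edgeR. The call was also lost without WT MWM replicate 2 (0.23 ± 0.04, adjusted p = 0.0578) or without WT homecage replicate 1 of RNA-Seq 2 (0.24 ± 0.04, adjusted p = 0.0702).

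Hspa13 (ENSMUSG00000032932, chr16:75745431-75767104), a short HSP70 relative of the ER, was the other called member (0.20 ± 0.03 on the log2 scale, adjusted p = 0.0205 in edgeR). Its levels in RNA-Seq 1 were 20.7, 21.1 and 30.2 CPM in the homecage and 31.2, 29.8 and 32.9 CPM after the MWM. In RNA-Seq 2 they were 38.7, 39.1 and 45.7 CPM in the homecage and 40.4, 38.9, 43.7 and 41.3 CPM after CFC. The groups overlapped in both experiments, and homecage replicates 1 and 2 of RNA-Seq 1 were the lowest of all libraries. Taken 1 experiment at a time, Hspa13 changed by 0.38 ± 0.14 after the MWM (adjusted p = 0.357 in edgeR) and by -0.00 ± 0.09 after CFC. Without factors the change was 0.17 ± 0.09 with an adjusted p = 0.749, with the choroid plexus score as a covariate the adjusted p = 0.0809, and with GC-content normalisation it was 0.12 ± 0.03 with an adjusted p = 0.204 in edgeR. The Hspa13 call was lost without any of 7 single libraries: WT homecage replicate 1 (adjusted p = 0.284) or 2 (0.158) of RNA-Seq 1, WT MWM replicate 1 (0.0898), 2 (0.0751) or 3 (0.126), WT CFC replicate 3 (0.0551), and WT homecage replicate 1 of RNA-Seq 2 (0.0862). Its log2 fold change without them was 0.13 to 0.20.

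**Figure D2:**
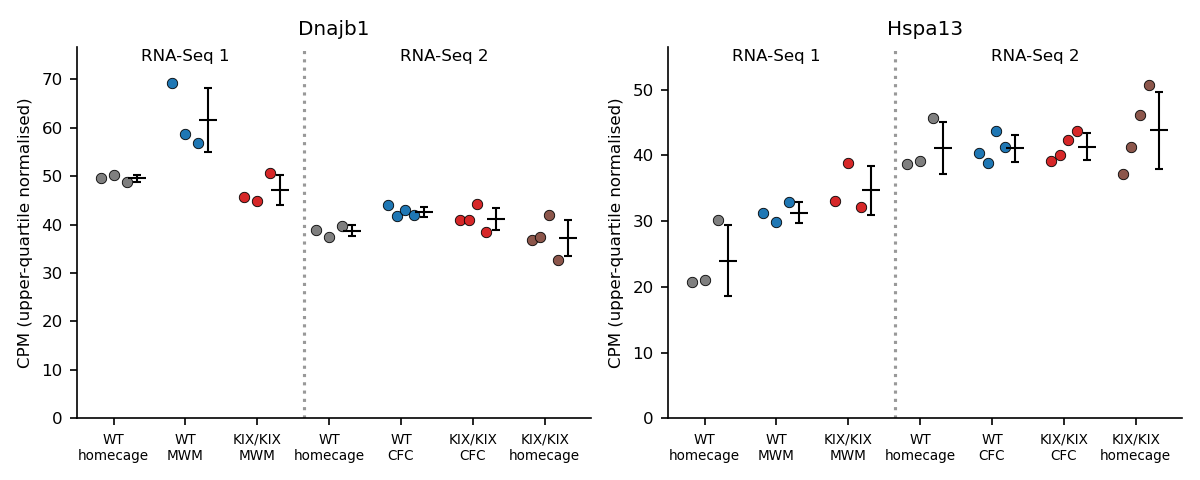
Level of Dnajb1 (left) and Hspa13 (right) in CPM in each of the 24 libraries, by group, with the mean ± SD as a bar beside the points and a dotted line between experiments. Dnajb1 is highest in the 3 WT MWM libraries (56.8 to 69.2 CPM), and Hspa13 is lowest in WT homecage replicates 1 and 2 of RNA-Seq 1 (20.7 and 21.1 CPM).

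In that pooled comparison 73 of the 80 members were tested, 2 of them rose and none fell, where 0.327% of the 22038 genes tested rose and 0.467% fell. At an unadjusted p under 0.05 there were 16 members higher and 4 lower, against 6.24% and 10.6% of all genes. The median log2 fold change of the members was 0.04 and that of all genes -0.03, and 54 members lay above 0, where 42.3% of all genes did. All 13 choroid plexus markers were higher after learning at an unadjusted p under 0.05 in the same fit, and their part in the chaperone values was not tested. Of the 11 heat-shock inducible members 9 lay above 0 (median 0.07), and of the 10 UPR-induced members 8 did (median 0.09). Next in order of p were Hspa12b (-0.34 ± 0.08, adjusted p = 0.0595), the J protein Dnaja1 (0.14 ± 0.04, adjusted p = 0.091) and Dnajb5 (0.17 ± 0.05, adjusted p = 0.112). None of these passed the threshold in edgeR.

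These counts moved with single homecage libraries. Without WT homecage replicate 3 of RNA-Seq 1, 13 members passed, 12 higher and 1 lower, where 4.13% and 6.61% of all genes did. The 12 were Canx, Dnaja1, Dnaja2, Dnajb1, Dnajb4, Dnajc2, Dnajc3, Dnajc10, Dnajc13, Hsp90aa1, Hspa13 and Hspd1, and Hspa12b was lower. Without WT homecage replicate 3 of RNA-Seq 2 the count was 7 higher, among them Hspa5, Hsp90b1, Pdia6 and Dnajc3, and 1 lower, where 0.816% and 1.54% of all genes did. Libraries with the same replicate number deviated together in the homecage and trained WT groups of both experiments. With the replicate number as a block, 5 members passed with the factors (992 genes in all, against 175 without the block) and none without the factors, where 12 genes passed.

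The tasks were also examined one at a time. Among WT mice of RNA-Seq 1, 56 of the 74 members tested had a positive log2 fold change after the MWM, where 39% of the 22276 genes tested did, and the median was 0.08 against -0.07. No member passed the adjusted threshold in edgeR, nor in DESeq2, which called 80 genes, while in edgeR 0.00898% of all genes rose and 0.00449% fell. At an unadjusted p under 0.05, 6 members were higher and 4 lower (1.99% and 8.87% of all genes). With TMM normalisation 62 of the 74 were positive and the median was 0.13 against -0.02. Both medians were thus higher than with the upper quartile, and the 39% of all genes does not apply to that setting.

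Dnajb1 changed by 0.31 ± 0.09 after the MWM (adjusted p = 0.306 in edgeR). Hspa8, the constitutive HSP70, measured 919, 786 and 1002 CPM in the homecage and 1057, 1086 and 1159 CPM after the MWM (0.28 ± 0.12, adjusted p = 0.411). Dnajb9 also had no overlap between groups, with 12.2, 11.8 and 12.6 CPM in the homecage and 12.8, 14.5 and 14.0 CPM after the MWM. These 3 were the only members higher in every trained library, 3 of 74, where 3.93% of all genes were.

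Of the 15 ER members tested, 12 lay above 0 and none passed. BiP (Hspa5) measured 139, 134 and 173 CPM in the homecage and 183, 167 and 196 CPM after the MWM (0.29 ± 0.11, adjusted p = 0.396). GRP94 (Hsp90b1) measured 90.1, 77.3 and 114 CPM and then 100 to 119 CPM (0.20 ± 0.14), and Canx 232, 227 and 297 CPM and then 273, 271 and 296 CPM (0.15 ± 0.12, adjusted p = 0.636). For each gene homecage replicates 1 and 2 lay below every trained library, while replicate 3 lay among them for Hspa5 and Hsp90b1 and above them for Canx. Calr (-0.02 ± 0.11), Dnajb11 (-0.05 ± 0.10) and Pdia5 (-0.46 ± 0.26) were the ER members below 0. The ER members had a median of 0.17, the 11 HSP70 and HSP110 members 0.12 and the 6 mitochondrial members 0.10.

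Without homecage replicate 3, 13 members passed in this comparison, 11 higher and 2 lower, where 2.82% of all genes rose and 7.89% fell. Hspa13 then changed by 0.58 ± 0.10 (adjusted p = 0.00855), Hspa5 by 0.41 ± 0.09 (adjusted p = 0.0167) and Dnaja1 by 0.39 ± 0.09 (adjusted p = 0.0202). The others that rose were Canx, Dnaja2, Dnajc3, Dnajc10, Hspa4l, Hspa8, Pdia4 and Pdia6. Homecage replicate 3 had 1878 CPM of choroid plexus markers against 152 and 166 CPM in replicates 1 and 2, and 3611 CPM of neuronal markers against 5353 and 4974 CPM. Mitochondrial genes made up 1.99% of the counts of homecage replicate 3, and 1.36% and 1.38% of those of replicates 1 and 2. The trained WT libraries had 207 to 1857 CPM of choroid plexus markers, 3934 to 4709 CPM of neuronal markers and 1.74% to 2.08% mitochondrial counts. Whether replicate 3 or replicates 1 and 2 were unusual cannot be told from these libraries, and the part of these values in the result was not tested. With the replicate number as a block, 1 gene and no member passed, against 3 genes without it.

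No member was called lower after the MWM with all libraries, and 18 had a negative log2 fold change. Hspb6 (HSP20), a small HSP, measured 5.88, 5.35 and 4.15 CPM in the homecage and 3.00, 3.80 and 3.55 CPM after the MWM (-0.57 ± 0.16, adjusted p = 0.303, and -0.71 ± 0.15 with adjusted p = 0.016 without homecage replicate 3). Hspa12b, a divergent HSP70 relative that is enriched in endothelium, measured 10.5, 11.3 and 9.28 CPM and then 8.54, 6.98 and 7.82 CPM (-0.41 ± 0.16, adjusted p = 0.387). The summed level of the 5 endothelial markers was 173 to 195 CPM in those homecage libraries and 126 to 152 CPM in the trained ones, and its part in the Hspa12b values was not tested. Fewer cells of a type and less RNA per cell cannot be told apart in bulk tissue. With Dnajc17, Hspb9 and Pdia5 these were the 5 of 74 members whose trained libraries all lay below the homecage ones, where 9.58% of all genes did. Dnajb2, a neuronal J protein, had a log2 fold change of -0.24 ± 0.10 (adjusted p = 0.431) with all libraries and was called without homecage replicate 3 (-0.33 ± 0.08, adjusted p = 0.0266).

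**Figure D3:**
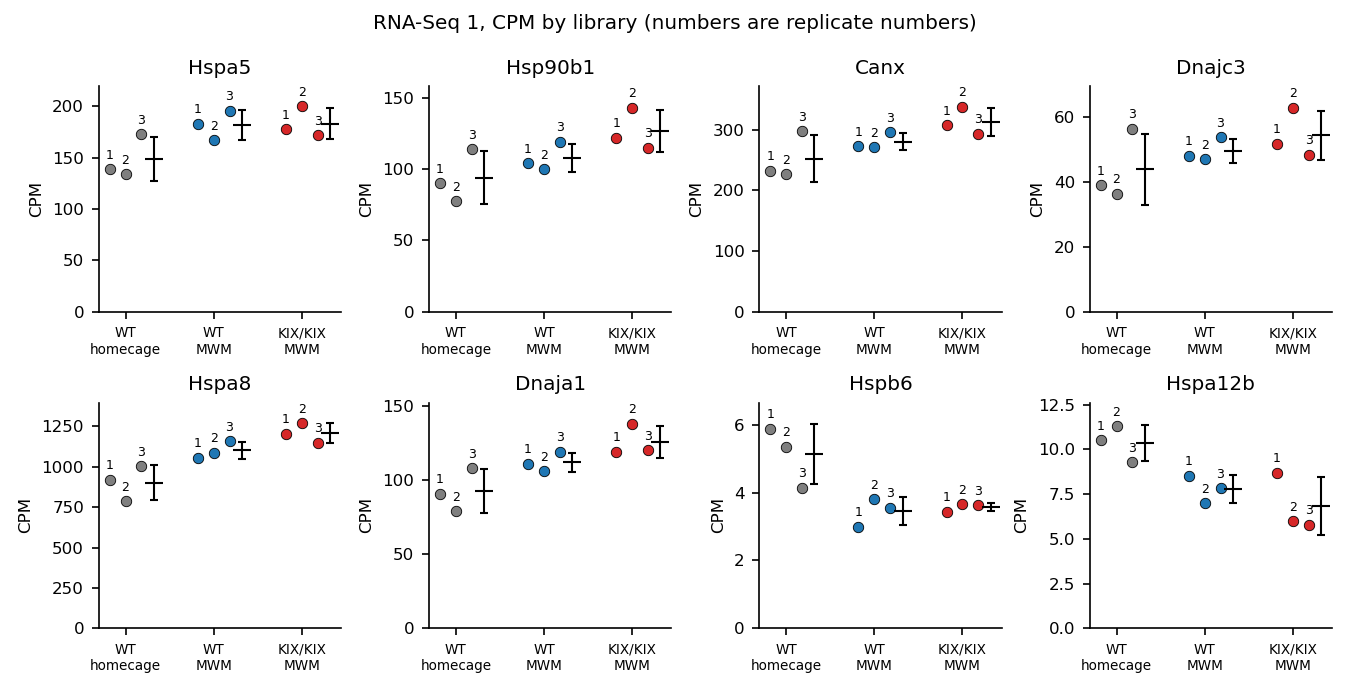
CPM by library in RNA-Seq 1 for 6 chaperone genes with positive and 2 with negative log2 fold changes after the MWM. Points carry replicate numbers and bars show the mean ± SD. WT homecage replicate 3 lies above homecage replicates 1 and 2 for Hspa5, Hsp90b1, Canx, Dnajc3, Hspa8 and Dnaja1, and below them for Hspb6 and Hspa12b.

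After contextual fear conditioning in WT mice no chaperone was called. No member of the 72 tested passed in edgeR or DESeq2, and 0% of the 18851 genes tested passed in either direction. The median of the members and of all genes was -0.01. At an unadjusted p under 0.05 there was 1 member higher, Dnajb13, and none lower (1.27% and 1.12% of all genes). Dnajb1 changed by 0.14 ± 0.07 (adjusted p = 1). Dnajb5, a cytosolic J protein, measured 130, 129 and 146 CPM in the homecage and 167, 159, 156 and 167 CPM after CFC. Dnajb1 and Dnajb5 were the 2 of 72 members with every trained library above every homecage library, where 2.68% of all genes were, and Dnajb3 was the 1 below, where 2.64% were.

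The responses to the tasks were compared as the difference between the CFC and the MWM fold change in WT mice. No member passed in edgeR (0 of 73, with 5 lower and 1 higher at an unadjusted p under 0.05, where 2.11% and 5.81% of 22408 genes were) or in DESeq2. The lowest p belonged to Hspa8, whose response was 0.32 lower on the log2 scale after CFC than after the MWM (-0.32 ± 0.11, adjusted p = 0.511). For Dnajb1 the difference was -0.17 ± 0.11 (adjusted p = 0.682). Without WT homecage replicate 3 of RNA-Seq 1, Hspa13, Hspa8 and Dnajc10 passed, with differences of -0.58 ± 0.14, -0.40 ± 0.10 and -0.34 ± 0.09, where 0.896% of all genes were called lower.

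**Figure D4:**
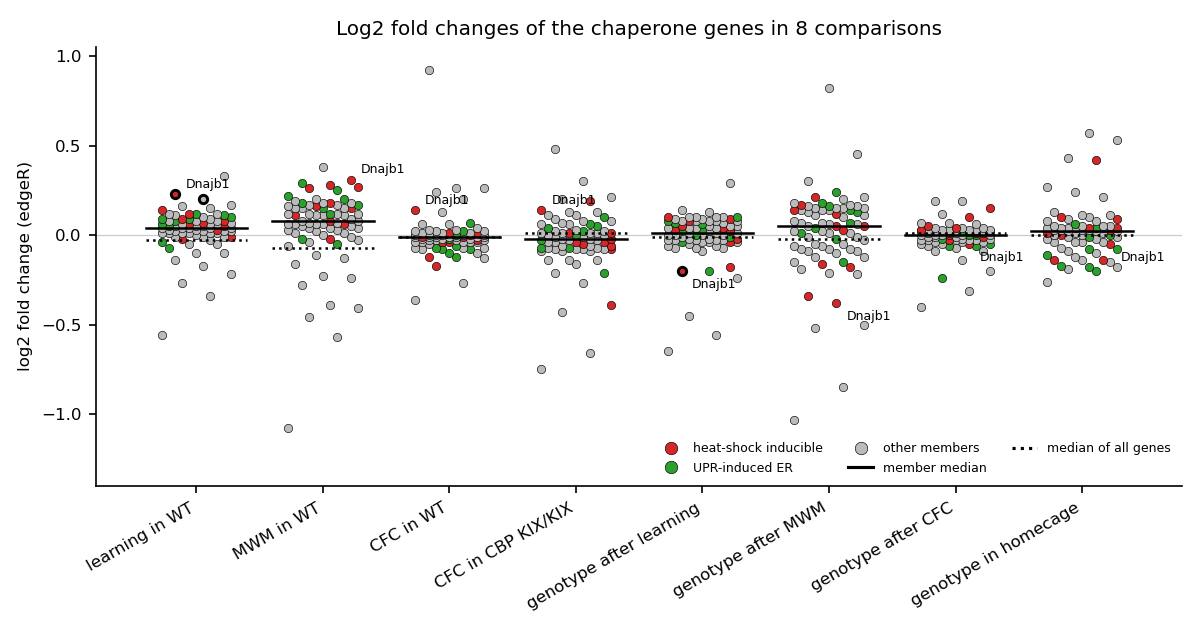
Log2 fold change of each tested member (edgeR) in 8 comparisons, with heat-shock inducible members in red, UPR-induced ER members in green and the others in grey. Thick outlines mark members past the adjusted threshold (Dnajb1 and Hspa13 for learning in WT, Dnajb1 for genotype after learning), solid lines the median of the members and dotted lines the median of all genes. The members' median lies above that of all genes after the MWM in WT mice (0.08 against -0.07).

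After learning, Dnajb1 was the only member called between the genotypes in the edgeR fit with factors, and it was lower in the mutants. Other settings called from 0 to 11 members, the 11 in a fit that called 2877 genes in all. Its levels after the MWM were 45.8, 44.9 and 50.7 CPM in CBP KIX/KIX mice, below the 56.8 to 69.2 CPM of trained WT mice and close to the WT homecage values. RNA-Seq 1 had no CBP KIX/KIX homecage mice, so whether Dnajb1 responded to the MWM in the mutants cannot be told. After CFC they were 40.9, 41.0, 44.2 and 38.5 CPM, which overlapped with the 41.7 to 44.0 CPM of WT mice. Pooled over both tasks, with the experiment as a batch and 4 RUVr factors, the log2 fold change was -0.20 ± 0.04 (0.872-fold), with an adjusted p = 0.0245. Without factors it was -0.20 ± 0.06 with an adjusted p = 0.396, and with GC-content normalisation it was -0.15 ± 0.04 with an adjusted p = 0.0665 in edgeR. The call was also lost without WT MWM replicate 1 (-0.15 ± 0.04, adjusted p = 0.107), CBP KIX/KIX MWM replicate 1 (-0.17 ± 0.04, adjusted p = 0.06) or 2 (-0.17 ± 0.04, adjusted p = 0.0767), or CBP KIX/KIX CFC replicate 4 (-0.19 ± 0.05, adjusted p = 0.0634). The trained WT libraries also entered the comparison with the homecage, so the opposite signs of Dnajb1 in both are not independent.

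In that comparison 1 of 73 members tested was called lower and none higher, where 1.44% and 0.982% of 21489 genes were. At an unadjusted p under 0.05, 12 members were higher and 4 lower (8.32% and 9.51% of all genes), 41 lay above 0 (47.6% of all genes), and the median was 0.01 against -0.01. The members next in p were all higher in CBP KIX/KIX mice: Hspa4l, an HSP110 (0.09 ± 0.03, adjusted p = 0.0756), Hsp90aa1 (0.10 ± 0.03, adjusted p = 0.0999) and Dnaja1 (0.09 ± 0.03, adjusted p = 0.101). The Hspb members had a median of -0.24 over 7 genes tested, of which 2 had an unadjusted p under 0.05 and none passed. DESeq2 called 3 members, Dnajb1 lower and Hspa8 and Hsp90aa1 higher, where it called 562 of the 21489 genes lower and 324 higher. Of the 4 astrocyte markers 2 were called lower in the edgeR fit, and their part in these values was not tested.

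Within RNA-Seq 1 alone the genotype difference of Dnajb1 was -0.38 ± 0.09 (adjusted p = 0.813 in edgeR), and no member passed in edgeR or DESeq2. There 0% of 22276 genes passed in edgeR, and at an unadjusted p under 0.05 there were 2 members lower, Dnajb1 and Hspb3, and none higher (3.35% and 2.42% of genes). In addition to Dnajb1, 4 of the 74 members lay below WT in every CBP KIX/KIX library: Hspa1a, Hspa1b, Hspb2 and Hspb3, where 9.36% of all genes did. Hspa1a measured 8.59, 8.27 and 7.46 CPM against 9.44, 8.86 and 8.99 CPM in WT mice, and Hspa1b 14.2, 14.5 and 12.3 against 15 to 16.2 CPM. Another 8 members lay above WT in every library (7.91% of all genes): Dnaja1, Dnajb3, Dnajb6, Dnajc8, Dnajc17, Dnajc28, Hspa4l and Hspa9.

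Within RNA-Seq 2 no genotype difference was detected after CFC. Dnajb1 differed by -0.05 ± 0.06 (adjusted p = 1), no member had an unadjusted p under 0.05 (1.2% of genes were higher and 1.14% lower at that p), and none passed in edgeR or DESeq2, where 0% of 18851 genes were called higher and 0.0106% lower. No member separated the groups in either direction, where 1.18% and 1.26% of genes did. The difference between both genotype effects was 0.33 ± 0.10 for Dnajb1 (adjusted p = 0.966 in edgeR), and no member passed this test in edgeR or DESeq2, with 1 member higher and 1 lower at an unadjusted p under 0.05 (1.82% and 2.01% of genes).

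In the homecage no member was called between the genotypes. CBP KIX/KIX replicates 3 and 4 were the highest libraries of the experiment for Hsph1, Dnajb5 and Hspb6, and for Hsph1 replicate 2 also lay above every WT homecage library. Hsph1, an HSP110 that recharges HSP70, measured 275, 279 and 337 CPM in WT mice and 290, 351, 399 and 551 CPM in CBP KIX/KIX replicates 1 to 4. Dnajb5 measured 130, 129 and 146 CPM in WT mice and 131, 130, 261 and 207 CPM, and Hspb6 3.31, 4.05 and 2.38 CPM in WT mice and 3.08, 2.82, 5.01 and 8.74 CPM. The fold changes were 0.42 ± 0.19 for Hsph1 (adjusted p = 0.798) and 0.43 ± 0.23 for Dnajb5 (adjusted p = 0.804). Gfap, the intermediate filament of astrocytes, was 304, 553, 800.0 and 1442 CPM in the same 4 libraries and 225 to 335 CPM in the other libraries of RNA-Seq 2. The sum of all 4 astrocyte markers was 983 to 2252 CPM in CBP KIX/KIX homecage mice and 902 to 1040 CPM in the others. Their part in the chaperone values was not tested. CBP KIX/KIX homecage replicates 1 to 4 held 36896142, 46056290, 16567226 and 15940061 counts, and WT homecage replicates 1 to 3 held 37461721, 43679701 and 15385836. Replicates 3 and 4 also held fewer counts than 1 and 2 in both trained groups of RNA-Seq 2. The part of depth was not tested either.

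Without CBP KIX/KIX homecage replicates 3 and 4, Hsph1 differed by 0.11 ± 0.11 and Dnajb5 by -0.04 ± 0.07 (adjusted p = 1 for both). No member of 71 passed with all libraries in edgeR or DESeq2, where 0.0107% of 18682 genes were called lower and 0% higher. At an unadjusted p under 0.05 there were 2 lower, Hspa12a (-0.15 ± 0.06) and Hspa2 (-0.26 ± 0.11), and none higher (3.16% and 2.97% of genes). Dnajb2 and Hspa12a lay below WT in every CBP KIX/KIX library, 2 of 71 members, where 3.78% of genes did, and none lay above, where 3.16% did. Dnajb1, at 36.9, 37.5, 41.9 and 32.8 CPM, overlapped with WT (-0.05 ± 0.08, adjusted p = 0.946).

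**Figure D5:**
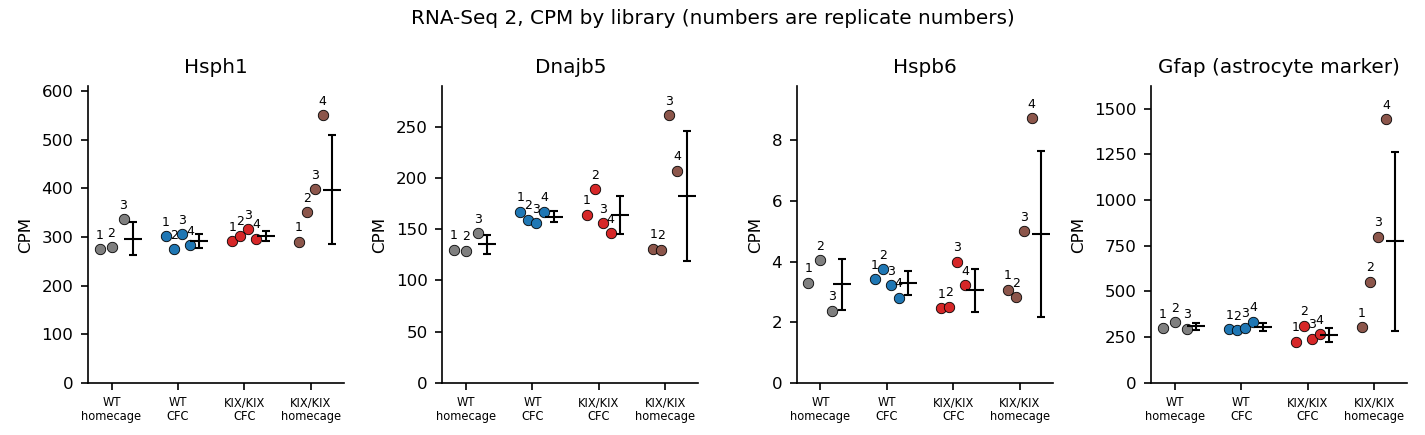
CPM by library in RNA-Seq 2 for Hsph1, Dnajb5, Hspb6 and the astrocyte marker Gfap. Points carry replicate numbers and bars show the mean ± SD. CBP KIX/KIX homecage replicates 3 and 4 lie above the other libraries in all 4 panels, up to 551 CPM for Hsph1 and 1442 CPM for Gfap.

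CFC in CBP KIX/KIX mice was compared with the same homecage libraries. No member of 72 passed in edgeR or DESeq2, and 0% of 18851 genes passed in edgeR. At an unadjusted p under 0.05, 6 members were lower and 1 was higher (6.81% and 6.23% of genes). Hsph1, at 291, 303, 316 and 297 CPM after CFC, changed by -0.39 ± 0.13 (adjusted p = 0.23), and Dnajb1 by 0.14 ± 0.06 (adjusted p = 0.341). Hspa14 and Hspb3 lay below the homecage in every trained library, 2 of 72, where 2.41% of genes did, and no member lay above it (2.49%). Without CBP KIX/KIX homecage replicate 1, Hsph1 was called (-0.52 ± 0.11, adjusted p = 0.0167), in a fit that called 2.97% of genes lower and 2.48% higher. Same-numbered libraries deviated together here, and with the replicate number as a block 4 genes and no member passed. The difference between genotypes in the CFC response passed for no member in edgeR or DESeq2, with 1 member, Hspb3, lower at an unadjusted p under 0.05 (2.48% of genes) and none higher (2.31%). For Dnajb1 that difference was 0.01 ± 0.09 (adjusted p = 1).

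Genes that work with the members were followed in 5 lists of other genes. The 3 heat-shock factors Hsf1, Hsf2 and Hsf4 did not pass in any of the 11 comparisons. Of 18 cytosolic cochaperones, 1 passed: Stip1, which links HSP70 to HSP90, was higher in CBP KIX/KIX mice after learning (0.11 ± 0.02, adjusted p = 0.0283, and adjusted p = 0.417 without factors). There 0.982% of all genes were called higher and 1.44% lower. At an unadjusted p under 0.05, 5 of the 18 were higher and 1 lower, where 8.32% and 9.51% of all genes were. Of 7 subunits of the chaperonin TRiC, 1 passed in the same comparison, Cct4 (0.12 ± 0.03, adjusted p = 0.0479, adjusted p = 0.552 without factors, and 0.08 ± 0.03 with adjusted p = 0.219 under GC-content normalisation). All 7 lay above 0 (47.6% of all genes did) with a median of 0.08, and 6 were higher at an unadjusted p under 0.05 (8.32% of all genes). Of 9 UPR sensors and factors, Xbp1, the transcription factor of the IRE1 branch, was lower there (-0.15 ± 0.03, adjusted p = 0.0268, adjusted p = 0.349 without factors, and -0.09 ± 0.03 with adjusted p = 0.196 under GC-content normalisation), and 3 others, Creb3l2, Eif2ak3 and Ern1, were at an unadjusted p under 0.05 on the same side, where 9.51% of all genes were. Of 18 further ER folding and degradation genes, none passed and 4, Edem1, Manf, Syvn1 and Uggt1, were lower at an unadjusted p under 0.05, against the same 9.51%. The 10 UPR-induced members had a median of 0.02 in that comparison, with 3 higher at an unadjusted p under 0.05 and none passing.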

How the data were processed

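Dorsal hippocampus RNA was sequenced in 24 libraries of 7 groups. Per the labels, reads were aligned to mm10 (GRCm38) with STAR, handled with SAMtools 1.6 and counted per gene with featureCounts 1.4.4, and the authors deposited unnormalised counts for 51826 genes. The counts were matched by Ensembl identifier to GENCODE M21 (51633 found). In edgeR 4.0.16 (R 4.3.3), genes were filtered by filterByExpr, libraries were scaled by the upper quartile, and quasi-likelihood tests were run over all genes with Benjamini-Hochberg adjustment at 0.05. Pooled comparisons had the experiment as a covariate and RUVr factors of unwanted variation, 4 for genotype after learning and 3 for learning in WT mice, while the other comparisons had none. A count of 3 was the detection floor, and precision statements cover counting error and these libraries only. No pair of libraries within a group was a duplicate (chi-square per gene 2.59 to 90.1 over 30 pairs).

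Same-numbered libraries deviated together in every pair (correlations over 0.1) for learning in WT mice (6 pairs, 0.1 to 0.375), its MWM (0.1 to 0.183) and CFC (0.189 to 0.375) parts, and CFC in CBP KIX/KIX mice (0.146 to 0.248). In the genotype comparisons not every pair did. The correlations were -0.158 to -0.0146 after the MWM, -0.0896 to 0.377 after CFC and 0.0663 to 0.242 in the homecage. No label says what a number shares. The members and the gene lists were chosen with earlier results of these data known. Named genes were the members called in any comparison, the 3 lowest p in each direction of each, and 26 fixed members. Members named only because their groups did not overlap, or because they passed with a library left out, were chosen after their values were seen. Alternatives were TMM, DESeq2 1.42.0, other filters, no or fewer factors, GC-content normalisation, a choroid plexus covariate, a replicate block and leaving out each library. The tests were also run on simulated counts with a fixed spread between independent libraries. Those counts held no unwanted variation, so they cannot check the calls that depend on the RUVr factors.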

Additional observations from a re-analysis of the deposited data

Results flagged for a closer look

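Of 141 combinations of a member and a group of 4 libraries examined for a library far from the others, 5 exceeded Dixon's critical value for 4 samples, and chance alone exceeds it in about 1 of 20 groups. All were in trained mice of RNA-Seq 2. After CFC in WT mice, replicate 1 was lowest for the ER chaperones Hsp90b1 (206 CPM, next 227) and Dnajb11 (40 CPM, next 42.8), and replicate 4 was lowest for Hspa8 (1267 CPM, next 1326). After CFC in CBP KIX/KIX mice, replicate 2 was lowest for Hsp90aa1 (721 CPM, next 781) and replicate 4 was highest for Hspa12b (8.38 CPM, next 6.68).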

How the results depend on the processing

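The number of members called stayed within 1.5 times in 219 of 252 alternatives over 11 comparisons. The genes called in all are given in brackets. For genotype after learning (1 member, 520 genes) it was 0 without factors (4), with 2 factors (131) and with GC-content normalisation (218). It was 2 with a filter at 1 CPM (655), 3 with DESeq2 (886) and 4 with the choroid plexus covariate (1331). For learning in WT mice (2 members, 175 genes) it was 0 without factors (9) and 7 with DESeq2 (756). It was 1 with GC-content normalisation (53), with the choroid plexus covariate (71) or with no filter (84). With the replicate number as a block, genotype after learning gave 11 members with factors (2877 genes) and 0 without (8 genes), and learning in WT mice 5 and 0. Leaving out single libraries gave 0 to 3 members for genotype after learning, 0 to 13 for learning in WT mice, 0 to 13 for the MWM in WT mice, 0 to 1 for CFC in CBP KIX/KIX mice and 0 to 3 for the difference between tasks.

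Of 1809 alternatives for 79 named fold changes, 24 lost and 26 gained a call. The sign changed in 23, of which 16 were moves within the standard error of fold changes that were not called, and the other 7 follow. GC-content normalisation gave -0.02 for Hspa13 and -0.02 for Hspa4l in genotype after learning, and -0.03 for Hspa13 in genotype after the MWM. Without CBP KIX/KIX homecage replicates 3 and 4, an alternative chosen after seeing the data, the homecage difference was -0.04 for Dnajb5 and -0.06 for Hspa13, and Hspa13 was 0.06 for CFC in CBP KIX/KIX mice and 0.06 for the genotype by CFC interaction. The cause was not tested. Dnajb1 kept its sign in genotype after learning (-0.23 to -0.15, called in 16 of 24 alternatives, adjusted p 0.000205 to 0.473 in edgeR and DESeq2) and in learning in WT mice (0.17 to 0.26, 19 of 23, 2.64e-06 to 0.485). Hspa13 in learning in WT mice was 0.12 to 0.25 and was called in 11 of 23.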
